A study of Mus musculus with 123 samples.

Results

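ES2 is 1 of 3 deposited lists of regions enriched for methylation of lysine 4 on histone H3, named ES1, ES2 and ES3 and taken here as 3 subpopulations of embryonic stem cells of the mouse. All peaks of the ES2 list on chromosomes 1 to 19 were taken: 21202 of the 59319 peaks that the 3 lists hold on these chromosomes, beside 25878 in ES1 and 12239 in ES3. A further 341 ES2 peaks lay on chromosome X and were left out. The series profiled single cells in droplets, where chromatin is tagged with a barcode of its cell ahead of immunoprecipitation, in 123 libraries: 86 for H3K4me2 and 37 for H3K4me3. Its stem cells were of the V6.5 strain, grown untreated in medium with fetal bovine serum and leukaemia inhibitory factor, and 59 of the H3K4me2 libraries held these stem cells alone. Other libraries held embryonic fibroblasts bought from Globalstem, alone or together with stem cells or with EML blood progenitor cells. Some held stem cells together with EML cells, and none held EML cells alone. Which mark, which libraries and how many cells stand behind ES2, and by what rule cells were put into it, is not given in the sources used. With 1 list a subpopulation and no replicate, no p-value is given, and intervals are exact 95% intervals that cover counting error only.

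Methylation of H3 lysine 4 sits at gene promoters that are active or held ready. The dimethylated form is also found at enhancers. Embryonic stem cells keep their identity through the transcription factors Oct4 (Pou5f1), Sox2 and Nanog, which bind each other's genes, while many genes of later lineages carry lysine 4 methylation together with repressive marks. Broad stretches of the mark are known at genes that define a cell's identity. A peak shows where the mark was called, and not whether a gene was expressed.

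The promoters of the 3 marker genes are shown because each gene lay in a different sequence setting and all of them were marked in ES2. The sequences are the 250 bases before the first listed start in RefSeq, plus strand, in GRCm38.p6, while the peaks are in mm9, so their coordinates cannot be set side by side. Capitals mark CpG dinucleotides in the first pair and a joint Oct4 and Sox2 motif in the last. They lie at chr17:35505782-35506031, chr3:34649745-34649994 and chr6:122707239-122707488.
Pou5f1 promoter: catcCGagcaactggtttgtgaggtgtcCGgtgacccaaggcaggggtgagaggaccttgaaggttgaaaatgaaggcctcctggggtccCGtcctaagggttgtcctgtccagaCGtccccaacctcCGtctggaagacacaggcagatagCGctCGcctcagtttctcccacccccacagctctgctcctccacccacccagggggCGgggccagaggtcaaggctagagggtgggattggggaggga
Sox2 promoter: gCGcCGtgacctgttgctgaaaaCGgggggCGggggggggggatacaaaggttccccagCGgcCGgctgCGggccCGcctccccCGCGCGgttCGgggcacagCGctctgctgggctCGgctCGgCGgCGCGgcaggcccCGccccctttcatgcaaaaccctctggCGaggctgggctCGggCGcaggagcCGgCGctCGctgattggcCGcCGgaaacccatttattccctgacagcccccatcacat
Nanog promoter: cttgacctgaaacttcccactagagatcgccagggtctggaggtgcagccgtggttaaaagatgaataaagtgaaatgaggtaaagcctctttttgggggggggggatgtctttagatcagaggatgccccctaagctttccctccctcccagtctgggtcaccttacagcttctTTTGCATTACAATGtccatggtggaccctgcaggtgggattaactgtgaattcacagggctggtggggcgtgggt
The Sox2 promoter held 27 CpG dinucleotides, and 92.4% of the 32851 promoters in the table held as many or fewer. The Pou5f1 promoter held 8 (59.7% as many or fewer) and the Nanog promoter 3 (37.8%), against a median of 6. The joint motif, an Oct4 site beside a Sox2 site with any base allowed between them, was searched on both strands as the letters in capitals above. It lay in the Nanog promoter at bases 75 to 62 before the start, and in 2 of all the promoters (0.00609%), both of them listed starts of Nanog. These matches describe the letters only.

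All 3 marker genes were marked in ES2, with more bases under peaks than in ES3 and fewer than in ES1. The lists as wholes stood in the same order, with 46.2 Mb covered in ES2, 63.3 Mb in ES1 and 22.6 Mb in ES3. Summed over the 3 genes, ES2 had 0.730 times the bases of ES1, and over all peaks also 0.730 times. A gene was called marked where a peak overlapped its span, widened by 10 kb on both sides, by at least 1 bp. The mm9 spans were written from general knowledge to the nearest 1 kb, since no mm9 annotation was used, and only their chromosome and order were checked against RefSeq. Of the 89 listed genes, 74 were marked in ES2, 78 in ES1 and 63 in ES3. Of all windows of 31 kb, the median width of the gene windows, 18.1% held an ES2 peak, 21.2% an ES1 peak and 11.6% an ES3 peak. These windows span whole chromosomes, with or without genes, so they are no matched background for windows placed on genes. Reads below are those of whole peaks, counted in the inner interval that the list gives for each peak. Inner intervals differ in length between the lists, so more reads in 1 list need not mean a denser peak.

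At Pou5f1 the 2 ES2 peaks covered 12641 bp of the window, or 48.6%, against 18378 bp in ES1 and 9239 bp in ES3. The peak over the gene, chr17:35638381-35645763, was 7383 bp wide with 89 reads (71.5 to 110), and a peak at chr17:35652743-35659488 lay downstream of the gene. ES2 thus lay between the other lists at this gene, as it did in total covered length. At Sox2 the 3 ES2 peaks covered 15878 bp, or 66.2% of the window and the largest share of all listed genes, against 19209 bp in ES1 and 7708 bp in ES3. The widest of them, chr3:34559423-34570412, lay downstream of the gene and held 111 reads (91.3 to 134) over 10990 bp. The Sox2 control region farther downstream, a distal enhancer used in embryonic stem cells, had 12497 bp under 2 ES2 peaks, 17749 bp in ES1 and 1920 bp in ES3. The reads went the other way between ES2 and ES1, with 102 over 12285 bp of inner interval in ES2, 49 over 3483 bp in ES1 and 17 over 1920 bp in ES3. Its larger ES2 peak, chr3:34650983-34660584, held 79 reads (62.5 to 98.5). At Nanog 4 separate ES2 peaks covered 8752 bp (31.3%), where ES1 had 3 peaks over 13472 bp and ES3 had 1 over 5885 bp. The upstream peak, chr6:122650275-122653787, held 46 reads (33.7 to 61.4). Reads at Nanog differed little between ES2 and ES1. The inner intervals held 122 (101 to 146) in ES2 over 8752 bp, 118 in ES1 over 8782 bp and 27 in ES3.

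Genes of the naive pluripotent state, that of the early embryo, were marked throughout. All 21 listed naive genes had an ES2 peak, as they had an ES1 peak, and 19 had an ES3 peak. The median naive gene had 9872 bp under ES2 peaks, 9073 bp under ES1 peaks and 4489 bp under ES3 peaks. Over all 89 genes the medians were 3885 bp, 5388 bp and 1991 bp, and none of these medians is adjusted for the width of the windows. Although its median was higher, the sum over the naive genes was lower in ES2 than in ES1, at 276 kb against 351 kb. Of the 21 naive genes 16 had fewer bases in ES2, beside 52 of the 79 listed genes with a peak in either list. Esrrb, an orphan nuclear receptor of the naive network, had the most bases, with 49143 bp in 6 ES2 peaks against 59944 bp in ES1 and 30483 bp in ES3. Its window was 181 kb, of which ES2 covered 27.2%, while ES2 covered 58.2% of the 25 kb at Fgf4. Tet2, which like Tet1 oxidises methylated cytosine, had 38868 bp in ES2, 41660 bp in ES1 and 5956 bp in ES3. At Tet2 the 6 ES2 peaks held only 99 reads in their inner intervals, and the inner interval of the widest covered 512 of its 26130 bp. Tet1 had 31868 bp in 10 ES2 peaks with 274 reads, against 42191 bp in ES1 and 16384 bp in ES3. Tfcp2l1, a transcription factor of the naive state, had 20414 bp in ES2, 25062 bp in ES1 and 7385 bp in ES3. Its reads were 87 in ES2, 65 in ES1 and 70 in ES3, over inner intervals of 10781, 6456 and 7385 bp. At the other end, and named after their values were seen, Klf4 had 1 ES2 peak of 1043 bp with 16 reads and Dppa2 had 940 bp with 13 reads.

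Of the 8 genes of the primed epiblast, the later pluripotent state, 7 were marked in ES2, and the list's median was 2975.5 bp, beside 9214 bp for ES1 and 2984 bp for ES3. Otx2, a homeobox factor of the primed epiblast and the forebrain, had 14916 bp under 3 ES2 peaks, 12435 bp in ES1 and 12133 bp in ES3. Of these 8 genes it alone had more bases in ES2 than in ES1, though its reads were 44 in both, over inner intervals of 2820 and 2016 bp. ES3 held more reads there, 133 over an inner interval of 12133 bp. Nodal, a ligand of the TGF-beta family, had 9628 bp in ES2 and 10572 bp in ES1. Zic2 had 8544 bp in ES2 against 17779 bp in ES1, and Dnmt3b, a DNA methyltransferase, had 3008 bp and 3028 bp. Fgf5, a growth factor gene that marks the primed state, had no peak in any list.

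At most of the listed neural genes ES2 covered more bases than ES1, a comparison chosen after the values were seen. All 12 neural genes were marked in ES2, and 8 of them had more bases in ES2 than in ES1. Over all listed genes with a peak in either list this was so for 27 of 79, and over the genome for 33.4% of the windows of 31 kb with either peak. The neural sum was 82.4 kb in ES2, 78.3 kb in ES1 and 33.7 kb in ES3, and all 12 genes had more bases in ES2 than in ES3. Counted by reads, 7 of the 12 neural genes were higher in ES2 than in ES1, beside 35 of the 79. Pax6, a master regulator of eye and forebrain, had 4 ES2 peaks over 12478 bp with 90 reads, 4 ES1 peaks over 10750 bp with 81 reads, and no ES3 peak. Its reads thus differed little between ES2 and ES1, over inner intervals of 8971 and 6478 bp, and ES3 stood apart. Gbx2, a homeobox gene of the hindbrain that also acts in naive stem cells, went the other way, with 12012 bp in ES2 and 16468 bp in ES1. Pax2, a regulator of midbrain and kidney, had 8616 bp in ES2, 4902 bp in ES1 and 5356 bp in ES3. Olig2, a factor of the oligodendrocyte lineage, had 7664 bp, 9085 bp and 6937 bp. Named after their values were seen, Nkx2-2 had 5405 bp in ES2 and 2572 bp in ES1, and Shh had 5493 bp and 3465 bp, with no ES3 peak at either. Between 1 list of each name, without a replicate, it cannot be said whether such a count would recur.

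Of the 13 genes of endoderm and mesoderm, 10 were marked in ES2, 10 in ES1 and 7 in ES3, and the ES2 median was 1716 bp. Eomes, a T-box factor of both layers, had the most ES2 bases of this list, with 11447 bp over 3 ES2 peaks, 10469 bp in ES1 and 9495 bp in ES3. Gata4 had 5559 bp, 3633 bp and 3771 bp in ES2, ES1 and ES3, and Sox17 had 3095 bp, 2577 bp and 500 bp. By reads both were lower in ES2 than in ES1, with 40 against 55 at Gata4 and 31 against 57 at Sox17. Inner intervals in ES2 and ES1 were 2773 and 2643 bp at Gata4, and 1638 and 2577 bp at Sox17. Both act in endoderm, as does Gata6, with 2468 bp in ES2 and 4687 bp in ES1. In this list 7 of 10 genes with a peak had more bases in ES2 than in ES1, but 5 had more reads. Foxa2, Hnf4a and Tbx5 had no ES2 peak, and none in ES1 or ES3.

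The 4 Hox clusters, which pattern the body axis, were all marked in ES2, in many separate peaks. HoxA held 15 ES2 peaks over 23215 bp, HoxB 7 over 18262 bp, HoxC 12 over 30381 bp and HoxD 5 over 6931 bp. In ES1 the same clusters held 16 peaks over 41425 bp, 8 over 26032 bp, 13 over 30436 bp and 8 over 13199 bp. In ES3 they held 11 over 17261 bp, 3 over 4175 bp, 11 over 17470 bp and 3 over 5347 bp. The other clusters had fewer bases in ES2 than in ES1, while HoxC was nearly equal in both. HoxC held 303 reads over 25093 bp of inner interval in ES2 and 248 over 16550 bp in ES1. Its largest ES2 peak, chr15:102760168-102770838, held 103 reads (84.1 to 125) over 10671 bp.

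Markers of the other cells in the series were partly marked too. Of the 8 fibroblast genes 4 had an ES2 peak, against 6 in ES1 and 3 in ES3, with 10.7 kb, 15.4 kb and 5.75 kb in sum. Of the 6 fibroblast genes with a peak in ES1 or ES2, 3 had more bases in ES2 than in ES1 and 3 had fewer. Fn1 (fibronectin) had 4154 bp in ES2 and 9219 bp in ES1. Col1a1 (collagen) had 3225 bp in ES2 and 1843 bp in ES1, and Twist1 had 1458 bp and 798 bp. Prrx1, with 1861 bp in ES2, also had more bases there than in ES1. Col1a2, Thy1, Twist2 and Postn had no ES2 peak. Thy1 had 2 peaks in ES1 and none in ES3, and Twist2 had 1 in ES1 and 1 in ES3. Of the 8 blood progenitor genes 5 were marked in each list, with 29.4 kb in ES2, 30.5 kb in ES1 and 12.4 kb in ES3. Runx1 had 9916 bp in ES2, Gata2 8954 bp, Kit 8413 bp and Lmo2 1493 bp, while the leukocyte genes Ptprc, Spi1 and Mpo had no peak in any list. Of the 5 trophectoderm genes, those of the outer layer of the blastocyst, 4 were marked in ES2. All of these had fewer bases in ES2 than in ES1, as had 52 of the 79 listed genes with either peak, though 1 had more reads. With only the 50% of peaks with the most reads, 2 of the 5 were marked. Tfap2c had 6202 bp in ES2, Cdx2 4697 bp, Krt8 2565 bp and Krt18 680 bp, and Elf5 had no peak in any list. Whether fibroblasts or blood cells contribute to the ES2 peaks was not tested.

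Most housekeeping genes, 7 of 9, had fewer bases under ES2 peaks than under ES1 peaks, while 2 had more. Fewer bases in ES2 were also the rule over all listed genes with a peak in either list, at 52 of 79. Over the genome only 33.4% of the windows of 31 kb with either peak had more bases in ES2. Of 9 housekeeping genes 7 were marked in ES2 and 8 in ES1, their medians were 1629 bp and 5417 bp, with a sum of 25.3 kb against 49.6 kb. Gapdh, a glycolytic enzyme, had 10213 bp in ES2 and 11903 bp in ES1. Its reads were 100 over 9019 bp of inner interval in ES2 and 43 over only 2027 bp in ES1. Hsp90ab1, a chaperone, had 5644 bp and 12208 bp, and Tuba1b, a tubulin, 2805 bp and 3453 bp. Eef1a1, a translation factor, had 3079 bp in ES2 and no ES1 peak, and Ncl had 1470 bp in ES2 and 1251 bp in ES1. Npm1 and Tbp had an ES1 peak and no ES2 peak. Cdh1, the E-cadherin that holds stem cell colonies together, had 38385 bp over 6 ES2 peaks with 291 reads, against 45292 bp in ES1 and 22198 bp in ES3. Epcam, another epithelial surface gene, had a peak of 16 reads in ES1 and none in ES2. A gene with no peak is not shown to be unmarked, since no ES2 peak held fewer than 8 reads.

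**Figure D1:**
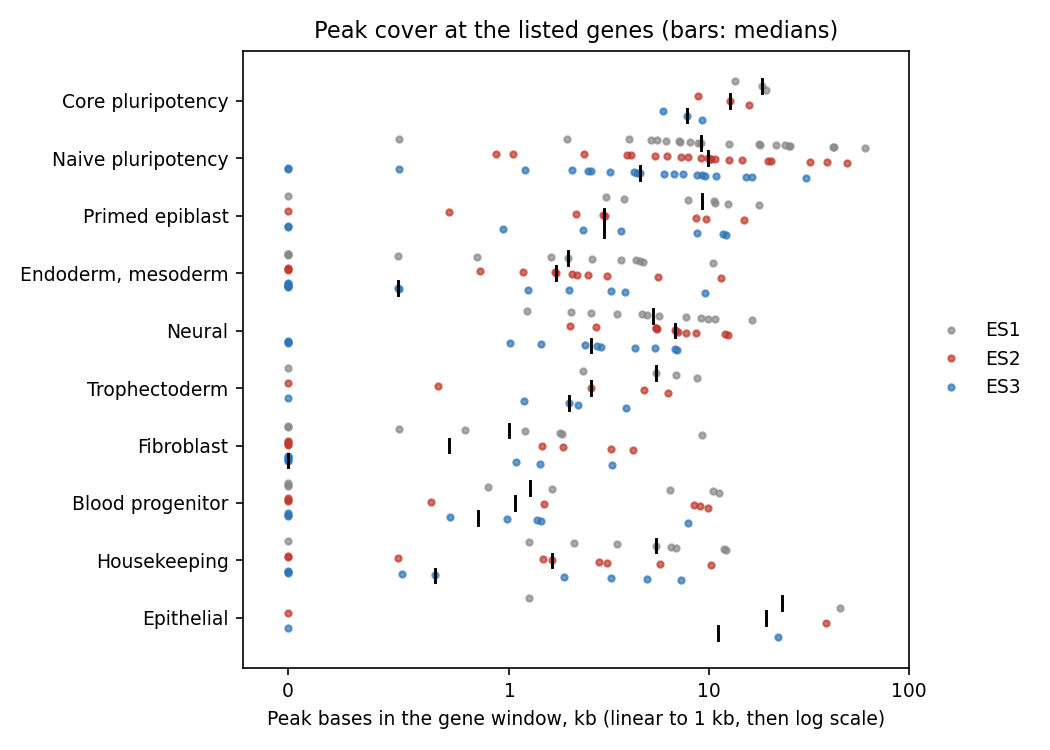
Bases under peaks, in kb on an axis that is linear to 1 kb and logarithmic above, in the window of each listed gene (points) for ES1, ES2 and ES3, with the median of each gene list as a black bar. The 3 core genes lie between 8752 and 15878 bp in ES2, each below its ES1 value, and the neural median is higher in ES2 (6771 bp) than in ES1 (5253.5 bp).

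The ES2 peaks covered 46.2 Mb, against 63.3 Mb in ES1 and 22.6 Mb in ES3, and differed from ES1 mainly in their widest members. The middle of the distribution was alike: the median ES2 peak was 1667 bp wide, with quartiles of 985.25 and 2591 bp, and the ES1 median was 1693.5 bp. In the upper tail the lists parted, with 95th percentiles of 5729 bp in ES2, 7017 bp in ES1 and 4454 bp in ES3. Peaks of at least 5 kb numbered 1494 in ES2, or 7.05% (6.71 to 7.40), and held 25.1% of its covered length, while ES1 peaks of this size held 34.8% and those of ES3 14.0%. The ES2 peaks nearest to this limit were 4998 and 5001 bp wide. At 20 kb or more 15 peaks remained in ES2, 78 in ES1 and 3 in ES3. At the lower end 1605 ES2 peaks, or 7.57% (7.22 to 7.93), were at the shortest width in the list, 500 bp, or 1 bp above it.

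Wide and narrow ES2 peaks differed in their reads. The narrowest 25%, 500 to 985 bp, had a median of 11 reads and a median score of 17.9, and the widest 25%, 2592 to 76578 bp, had 29 reads and a score of 10.4. The score rises with the reads per base of the inner interval, so the narrow peaks were the denser ones. Since no ES2 peak held fewer than 8 reads, a narrow peak could be called only at a high density. The inner interval spanned the whole peak in 62.8% of ES2 peaks. Among the wide peaks of at least 5 kb it spanned the whole peak in 609 (40.8%) and less than 10% of it in 217 (14.5%), so for many wide peaks the reads over most of the width are unknown.

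**Figure D2:**
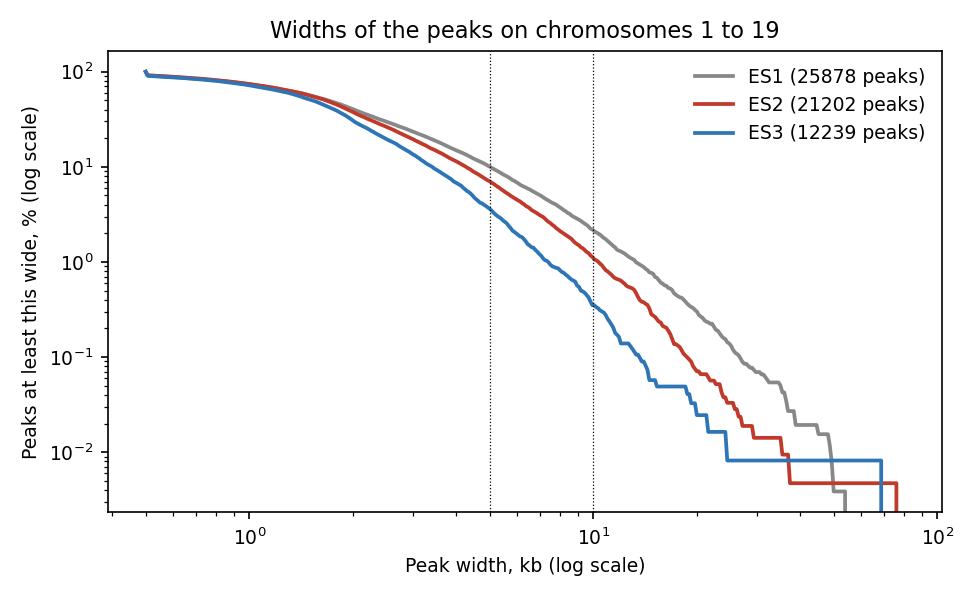
Share of peaks, in percent on a log axis, that are at least as wide as the value on the horizontal axis (kb, log scale), for the 3 lists; dotted lines stand at 5 and 10 kb. The curves run together up to about the median and part above it, and at 5 kb ES2 is at 7.05%.

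The widest ES2 peak that its own reads span in full lay in Esrrb. It ran over chr12:87813980-87851009, 37030 bp, and held 362 reads (326 to 401). ES1 covered 92.6% of it with 2 peaks and ES3 63.0% with 3. The widest ES1 peak in the Esrrb window was 36497 bp, close to the ES2 width, and the widest ES3 peak 19809 bp. A peak of 24227 bp at chr15:25681236-25705462 was likewise spanned in full, with 231 reads (202 to 263). ES1 covered all of it with 1 peak and ES3 68.3% with 3. That ES1 peak held only 9 reads in its inner interval, and the 3 ES3 peaks held 65. Both are among the 8 widest ES2 peaks. In the other 6 the inner interval held a small part of the width. These were chr11:3023179-3099756 with 76578 bp, chr12:85529160-85564506 with 35347 bp, chr4:140825872-140855152 with 29281 bp, chr14:55690299-55717175 with 26877 bp, chr3:133163831-133189960 in Tet2 with 26130 bp, and chr15:81976059-82001624 with 25566 bp. The Tet2 peak had 86.9% of its bases under ES1 but 9.19% under ES3, the lowest ES3 cover of the 8, against 29.1% to 98.4% in the others.

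Peaks ranked by reads were of 2 kinds. Of the 8 ES2 peaks with the most reads, 6 were short and dense, between 504 and 5782 bp wide. They lay at chr2:98502389-98507456 with 1142 reads, chr17:39979946-39985727 with 1074, chr9:35112681-35113199 with 1057, chr12:3109704-3110831 with 772, chr15:74915939-74917351 with 400 and chr6:103598895-103599398 with 293. All 6 were called in ES1 and ES3 as well, and whether they hold repeated sequence was not tested. The other 2 were broad, the Esrrb domain and chr4:137023668-137046340, with 267 reads (236 to 301) over 22673 bp. The median ES2 peak held 16 reads, the 90th percentile was 33 and the total in inner intervals was 427914.

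ES2 peaks lay in clusters. The median gap between neighbouring ES2 peaks was 20.0 kb and the mean 111 kb, 5.56 times the median, since most gaps were short and a few very long. The same ratio was 5.49 in ES1 and 6.00 in ES3. Linked at gaps of up to 10 kb, 11094 ES2 peaks, or 52.3%, fell into 3857 clusters, with a median of 2 peaks over 12262 bp. In ES1 56.7% of peaks were clustered and in ES3 41.0%, in the order of the lists' lengths. Clusters of 5 or more peaks numbered 412 in ES2, 613 in ES1 and 124 in ES3.

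The 5 largest ES2 clusters held 13 or 14 peaks each, and all of them held more peaks but fewer bases in ES2 than in ES1. One lay within HoxA, at chr6:52122519-52185179, with 13 peaks, where ES1 and ES3 had 8 each. ES2 covered 27.5% of that span, ES1 49.9% and ES3 14.4%. The cluster at chr13:53248266-53331873 had 13 ES2 peaks, 7 ES1 peaks and 4 ES3 peaks, over 41.6%, 53.3% and 17.2% of its length. The cluster at chr4:132559033-132660594 had 14, 10 and 9 peaks, with 48.1% of it covered in ES2. The cluster at chr13:44783518-44895579 had 14, 9 and 10 peaks, and holds a fully spanned ES2 peak of 19824 bp with 162 reads. The last, at chr3:122116717-122215434, had 14, 11 and 10 peaks. The spans were chosen by the number of ES2 peaks, so that ES2 leads in number follows from the choice.

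Over 2481 bins of 1 Mb, ES2 peaks were spread unevenly, with a median of 4, a mean of 8.55 and a highest count of 66. The variance was 13.4 times the mean, against 15.1 in ES1 and 9.88 in ES3, a ratio that grows with the number of peaks. The richest 10% of bins held 39.4% of ES2 peaks, 37.8% of ES1 peaks and 43.9% of ES3 peaks. The poorer 50% of bins held 6.25% of ES2 peaks. Bins with no ES2 peak numbered 598 (24.1%), beside 557 in ES1 and 844 in ES3. Bins were counted from coordinate 1, and no list had a peak before position 3000491 of any chromosome. The bins before that position are thus empty in every list, and all values by bin include them. The counts per bin followed those of ES1 with Spearman's rho = 0.97 and of ES3 with rho = 0.94 across the bins, which share their gene content and mappability and are not replicates.

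The 8 richest megabases were rich in every list. Chromosome 7 from 52 to 53 Mb had 66 ES2 peaks over 185 kb, with 73 peaks in ES1 and 47 in ES3. Chromosome 10 followed with 63 peaks from 80 to 81 Mb and 58 from 79 to 80 Mb. Bins with 55 ES2 peaks were chromosome 4 from 132 to 133 and from 133 to 134 Mb, the latter with the pluripotency gene Lin28a, chromosome 15 from 76 to 77 and from 79 to 80 Mb, and chromosome 1 from 137 to 138 Mb. At chromosome 1 from 137 to 138 Mb ES2 (55) and ES1 (56) were level while ES3 had 28.

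Few megabases had more peaks in ES2 than in ES1. Of the 1994 bins with a peak of either list, ES2 was above in 325 (16.3%), equal in 319 and below in 1350. Chosen after the values were seen, the largest excess was at chromosome 13 from 53 to 54 Mb, with 31 ES2 peaks, 23 in ES1 and 11 in ES3, the bin that holds the cluster of 13 peaks above. Chromosome 14 from 31 to 32 Mb had 24, 16 and 15, and chromosome 8 from 119 to 120 Mb had 37, 30 and 19. In none of these 3 bins did ES2 cover more bases than ES1: the values were 68.3 and 79.5 kb, 43.7 and 56.6 kb, and 86.1 and 93.2 kb.

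**Figure D3:**
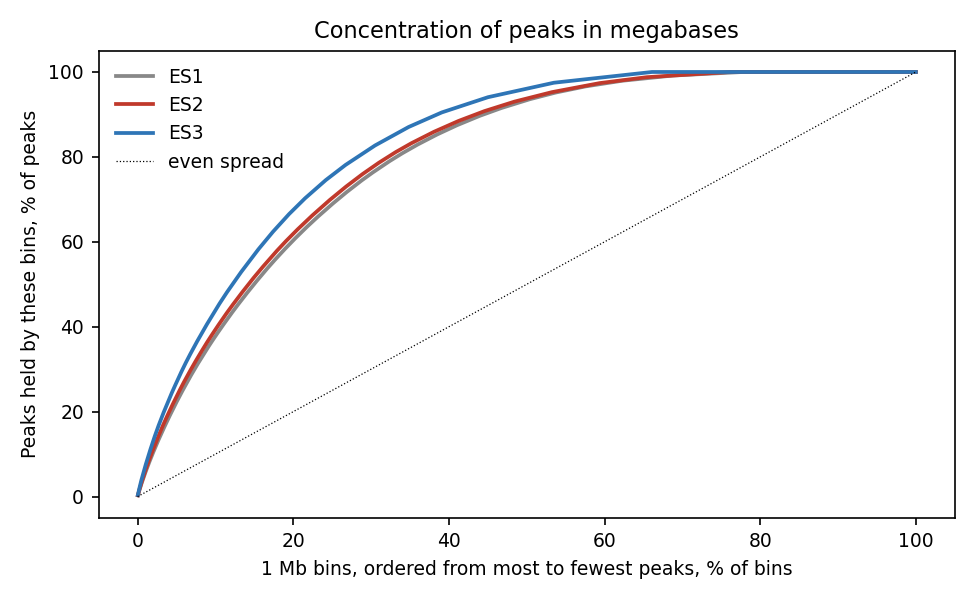
Share of each list's peaks, in percent, held by the bins of 1 Mb when these are ordered from most to fewest peaks (percent of 2481 bins); the dotted line is an even spread. At 10% of bins ES2 stands at 39.4%, between ES1 at 37.8% and ES3 at 43.9%.

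At the other extreme, 471 gaps between ES2 peaks were longer than 1 Mb and summed to 1002 Mb, against 927 Mb in ES1 and 1317 Mb in ES3. The longest ran over 10.6 Mb of chromosome 5, chr5:77794133-88380459, where ES1 had 2 peaks and ES3 had 1. Next came chr15:13025461-21040692 (8.02 Mb), chr7:39056460-46799393 (7.74 Mb), chr16:65564028-72662998 (7.10 Mb) and chr1:24012587-30860523 (6.85 Mb). The list of 8 ended with chr8:98511393-105307763 (6.80 Mb), chr4:73910769-80556393 (6.65 Mb) and chr15:44259268-50496136 (6.24 Mb). None of these 8 stretches held more than 4 ES1 peaks or more than 2 ES3 peaks, so they were poor in every list.

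Across chromosomes ES2 had 0.819 times as many peaks as ES1 and 0.730 times the covered length, although its inferred reads per kb of chromosome were higher on each of the 19, with a median ratio of 1.11. Chromosome reads were not counted: the value is the reciprocal of the score's unit, and holds only if the score is a fold over the chromosome's mean read density. Chromosome 8 had the highest ratio of peaks, 0.929 (0.864 to 1.00), and chromosome 2 the lowest, 0.739 (0.690 to 0.792). The fewest reads in a peak were 9 in both lists on chromosome 8, but 10 in ES2 and 9 in ES1 on chromosome 2. Whether such limits bear on the ratios was not tested. By covered length chromosome 8 stood at 0.774, nearer to the others. The intervals treat the lists as independent counts, which they are not, as most ES2 peaks overlap ES1. Inferred reads per kb ran from 0.853 on chromosome 3 to 1.51 on chromosome 11 in ES2, and these were also the lowest and highest chromosomes in ES1 and ES3.

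**Figure D4:**
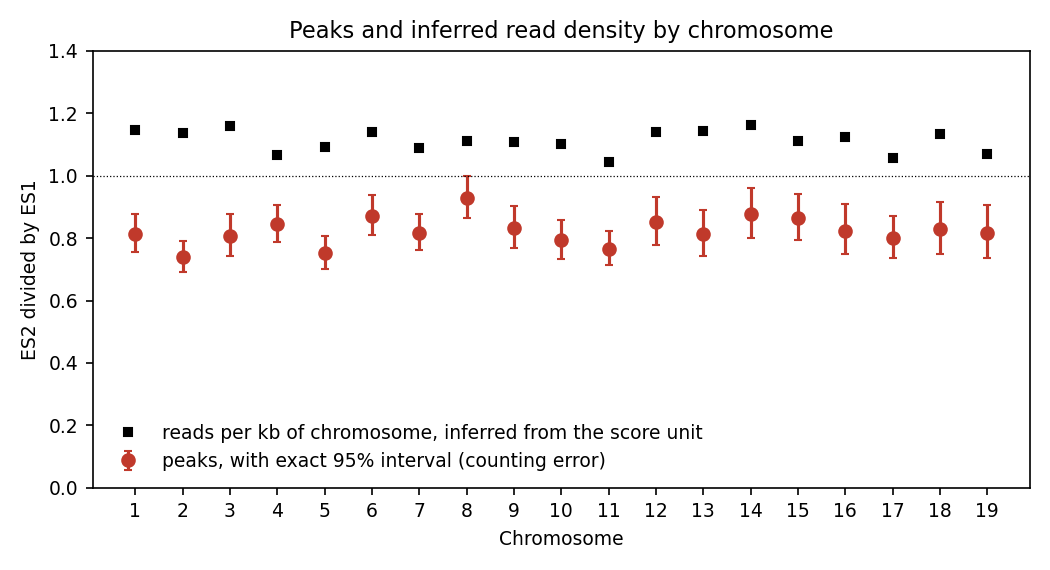
ES2 divided by ES1 for each of the 19 chromosomes: peaks (circles, with exact 95% intervals for counting error) and reads per kb of chromosome inferred from the score's unit (squares); the dotted line is a ratio of 1. All peak ratios lie below 1, from 0.739 on chromosome 2 to 0.929 on chromosome 8, and all read ratios above it.

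Peaks that ES2 did not share were narrow and held few reads. Of the ES2 peaks, 8455 (39.9%) overlapped a peak of both ES1 and ES3, 8195 (38.7%) one of ES1 without ES3, 656 (3.09%) one of ES3 without ES1, and 3896 (18.4%, 17.9 to 18.9) none. The medians were 2258 bp and 20 reads for peaks in both other lists, 1572 bp and 15 reads with ES1 alone, 1271 bp and 14 reads with ES3 alone, and 1032 bp and 13 reads for peaks in neither. Of the narrowest 25% of ES2 peaks 34.8% had no partner, and of the widest 25% 3.02%. Wider peaks meet another list more often by their width alone. The shares that overlap ES1 and ES3 also depend on list length, with 25878 peaks in ES1 and 12239 in ES3. With lists of 12239 peaks each, taken by reads, 57.1% of ES2 peaks overlapped ES1 and 51.9% overlapped ES3. Among the 1494 wide ES2 peaks, 1284 met both other lists, 200 ES1 without ES3, 5 ES3 without ES1 and 5 neither.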

How the data were processed

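The values came from the 3 deposited peak lists. Reads were aligned with Bowtie to mm9, per the submitters' processing notes; no source used here names the peak caller. Per the labels' protocols the chromatin passed 2 PCR amplifications, and whether duplicates were removed is not given. The score of each peak was deposited by the authors without a unit. Score times inner length was a whole multiple of 1 unit per chromosome for all peaks of the 3 lists (tolerance 0.001), and the multiple was taken as reads. That 1 unit is 1 read is an assumption. Inner intervals are shorter than many peaks, so reads in the rest of those peaks are unknown.

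Widths, gaps, clusters (gaps up to 10 kb), bins of 1 Mb by peak midpoint, overlaps (at least 1 bp) and gene windows (10 kb flanks) were computed in Python 3.11.15 with numpy 2.4.6, pandas 2.3.3 and scipy 1.17.1. Shares have Clopper-Pearson intervals and reads exact Poisson intervals, at 95%. No test between lists was run, and the code was tested on simulated lists. The 94 spans (89 genes in 10 lists, 4 Hox clusters and the Sox2 control region) were written from general knowledge of mm9 to the nearest 1 kb. All 89 genes were on the RefSeq chromosome, and 71 of 71 neighbouring pairs were in the RefSeq order. Sizes of single spans were not checked. Windows range from 22 to 246 kb, so rankings of genes by bases, and medians set side by side between gene lists, also depend on window width. At 1 gene the 3 lists share the same window.

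The members and the gene lists were chosen with earlier results of these data known. Text names the markers, up to 4 genes per list with the most ES2 bases, every gene with no ES2 peak, and the 8 widest peaks, 8 with the most reads, 8 richest bins, 8 longest gaps and 5 largest clusters. Alternatives were peaks merged within 1 kb, the upper 50% of peaks by reads, inner intervals, other linking distances, bins, windows and overlap rules, and lists of equal length. Depth was not counted. If the score is a fold over the mean read density of the chromosome, its unit gives 0.853 to 1.51 reads per kb by chromosome in ES2. This reading was not tested.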

Additional observations from a re-analysis of the deposited data

How the results depend on the processing

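Of 110 values computed under an alternative, 82 stayed within 1.5 times a count or inside the interval of a share, and 28 did not. Keeping the 50% of ES2 peaks with the most reads left 10601 peaks over 30.6 Mb by construction. By inner intervals 728 peaks reached 5 kb. Clustered peaks made up 32.1% at a linking distance of 5 kb and 69.1% at 20 kb. The richest 10% of bins held 35.2% of peaks at a bin size of 2 Mb and 45.1% of covered bases at 1 Mb, and 11.7% of bins of 2 Mb had no ES2 peak. Overlap fell with the 50% rule to 46.5% for ES1 and 23.7% for ES3. With lists of 12239 peaks by reads it was 57.1% for ES1 and 51.9% for ES3. Marked genes numbered 71 with flanks of 5 kb, 80 with 25 kb and 66 with the upper 50% of peaks. The comparison of bases in ES2 and ES1, and its alternatives, were chosen after the values were seen: neural genes higher in ES2 numbered 7 to 9 of 12, and all genes 27 to 35. Smaller lists moved more. Naive genes higher in ES2 numbered 5, but 9 by reads and 8 with ES1 shortened to the number of ES2 peaks. Blood progenitor genes numbered 1 of 5, but 2 with flanks of 25 kb, 3 with the upper 50% of peaks or with ES1 shortened, and 4 by reads. Primed genes numbered 1 of 7, but 2 with flanks of 25 kb or ES1 shortened, 3 by reads and 4 with the upper 50%. So the minority became a majority in both lists. Trophectoderm genes numbered 0 of 4, but 1 by reads, with the upper 50% or with ES1 shortened, and 2 of the 5 were marked with the upper 50%. Core genes numbered 0 of 3, but 1 by reads. No paired analysis was possible because the lists carry no replicates. No ES2 peak held fewer than 8 reads, so a gene without a peak is not shown to be unmarked, and the spans from general knowledge add an error of unknown size to counts at single genes.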
